A study of Caenorhabditis elegans with 32 samples.

Results

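The age by O2 interaction asks, gene by gene, whether the change from day 1 to day 7 of adulthood in sorted O2-sensing neurons was the same in animals kept at 21% O2 as in animals kept at 7% O2. It rests on 16 of the 32 libraries of the series, 4 in each of 4 groups, chosen by their labels as sorted neurons. The groups were adults of day 1 or day 7 from cultures at 21% O2, and adults of the same ages from cultures at 7% O2. All were hermaphrodites of 1 strain, KL123. Every group carried npr-1(ad609), on the X chromosome, and the integrated transgene iaIs25, which joins Pgcy-37::GFP with unc-119(+). The gcy-37 promoter labels URX, AQR and PQR strongly and, more weakly and less often, the touch neuron AVM and the ASI neurons. Each library came from GFP-positive cells sorted out of a large pool of dissociated worms, with its RNA amplified before sequencing. The labels call the libraries of a group biological replicates. All groups were fed bacteria that knock down mex-3 so that eggs would not hatch. Day 7 animals were later moved back to OP50 bacteria, so the length of the knockdown and the food at collection differed with age at both O2 levels. The other 16 libraries, of whole worms of the same groups, came from portions of the dissociated samples taken before sorting. They served only to show where the neurons differed.

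URX, AQR and PQR are body cavity neurons that respond to a rise in ambient O2. Soluble guanylate cyclases bind O2 through a haem group and make cGMP, cGMP opens a cation channel, and calcium enters the cell. The response is tonic, so animals at 21% O2 keep these neurons active for as long as they live there, while at 7% O2, near the preferred level, activity is low. The loss of npr-1 restores strong avoidance of 21% O2. The study used the culture O2 level as a stand-in for the activity of these neurons. Activity was not measured in these libraries, and the O2 level differed for the whole animal.

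A positive interaction means that the age change was more positive (or less negative) at 21% than at 7% O2, and a negative one the reverse. Of 11720 genes with enough counts to be tested, 7 were called, or 0.0597% of genes tested, by the edgeR quasi-likelihood test, with a threshold of 0.1 on p after Benjamini-Hochberg adjustment and of 1.5 on the fold. The globin gene glb-27, the nuclear hormone receptor gene nhr-14 and the choline acetyltransferase gene cha-1 were more positive at 21% O2 (3 genes, 0.0256%). The neuropeptide gene nlp-11, the neurexin-like gene itx-1, the glucuronosyltransferase gene ugt-58 and C30A5.4, annotated as a pseudogene, were more negative (4 genes, 0.0341%). Unadjusted p was under 0.05 for 872 genes, 426 positive and 446 negative. The median interaction over all genes was 0.04 on the log2 scale, and 51.4% of genes were positive.

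The age change itself was far broader. It was called for 3525 genes at 21% O2 (30.1% of genes tested) and for 4262 at 7% O2 (36.4%), and across genes the 2 changes had a Pearson r of 0.705. These changes share no library, but genes are not independent replicates. At both O2 levels 1111 genes rose and 1615 fell, and the interaction called 2 and 3 of them. A further 2315 genes passed the age test at 1 O2 level only. None of these 2315 was called by edgeR for the interaction, and 534 of them (23.1%) had an unadjusted interaction p under 0.05. That share was 7.44% over all genes tested, 8.64% of the genes that rose and 6.50% of those that fell at both levels, and 1.9% of the genes called at neither. These groups were formed by age calls in the same libraries. Picking genes with unequal calls by itself raises the share of small interaction p, so the shares are no separate evidence of an interaction. Opposite age calls were rare: nhr-14 alone rose at 21% and fell at 7% O2, and 9 genes did the reverse, of which C30A5.4 was called for the interaction.

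**Figure D1:**
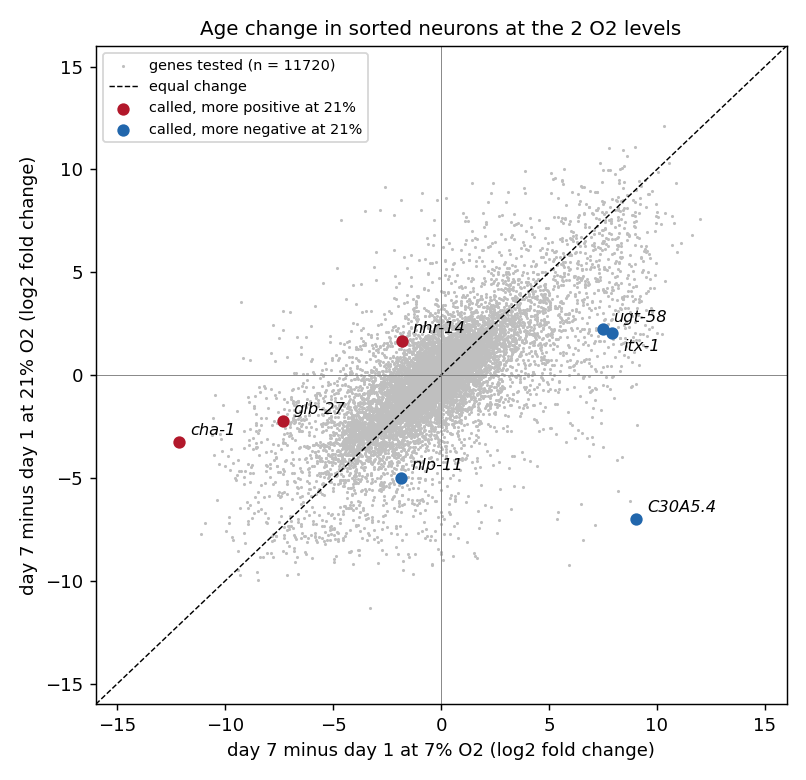
Log2 change from day 1 to day 7 at 7% O2 (x axis) and at 21% O2 (y axis) for 11720 genes in sorted neurons. The dashed line marks equal change. The 7 called genes lie off the line, 3 above it and 4 below.

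The precision of the interaction was low for most genes. It combines 4 groups, and its standard error had a median of 1.48 on the log2 scale against 1.09 for the age change at 21% O2. The half-width of its 95% interval had a median of 3.09, and it was 1 or less for 650 genes (5.55%). The biological coefficient of variation was 1.02 in these libraries and 0.418 in the whole worms. A gene that was not called is therefore not shown to age alike at both O2 levels. Total counts ran from 8470929 to 30666288 in the sorted libraries, and 1 gene annotated as noncoding, F31C3.14, took from 5.33% to 42.95% of them.

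Some libraries stood apart from their group. Marker sums, in CPM (counts relative to library size, after TMM scaling), put body wall muscle genes at 23700 in replicate 1 of day 1 neurons at 7% O2 and at 13000 in replicate 2 of day 1 neurons at 21% O2, against 3600 to 5250 in the other day 1 libraries. Markers of O2-sensing neurons were at 2870 in that 7% library and at 6150 to 10600 in all other day 1 libraries. Germline and oocyte markers were at 3110 in replicate 4 of day 7 neurons at 21% O2 and at 447 to 552 in the other libraries of that group. All 10 markers of O2-sensing neurons were counted in every group. Their summed level on day 7 was 374 to 876 at 21% O2 and 356 to 620 at 7% O2, against 2870 to 10600 on day 1, and 5 of the 160 values of single markers were at 0. In such bulk samples fewer cells of a type and less RNA per cell cannot be told apart. Results are also given without these 3 libraries.

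**Figure D2:**
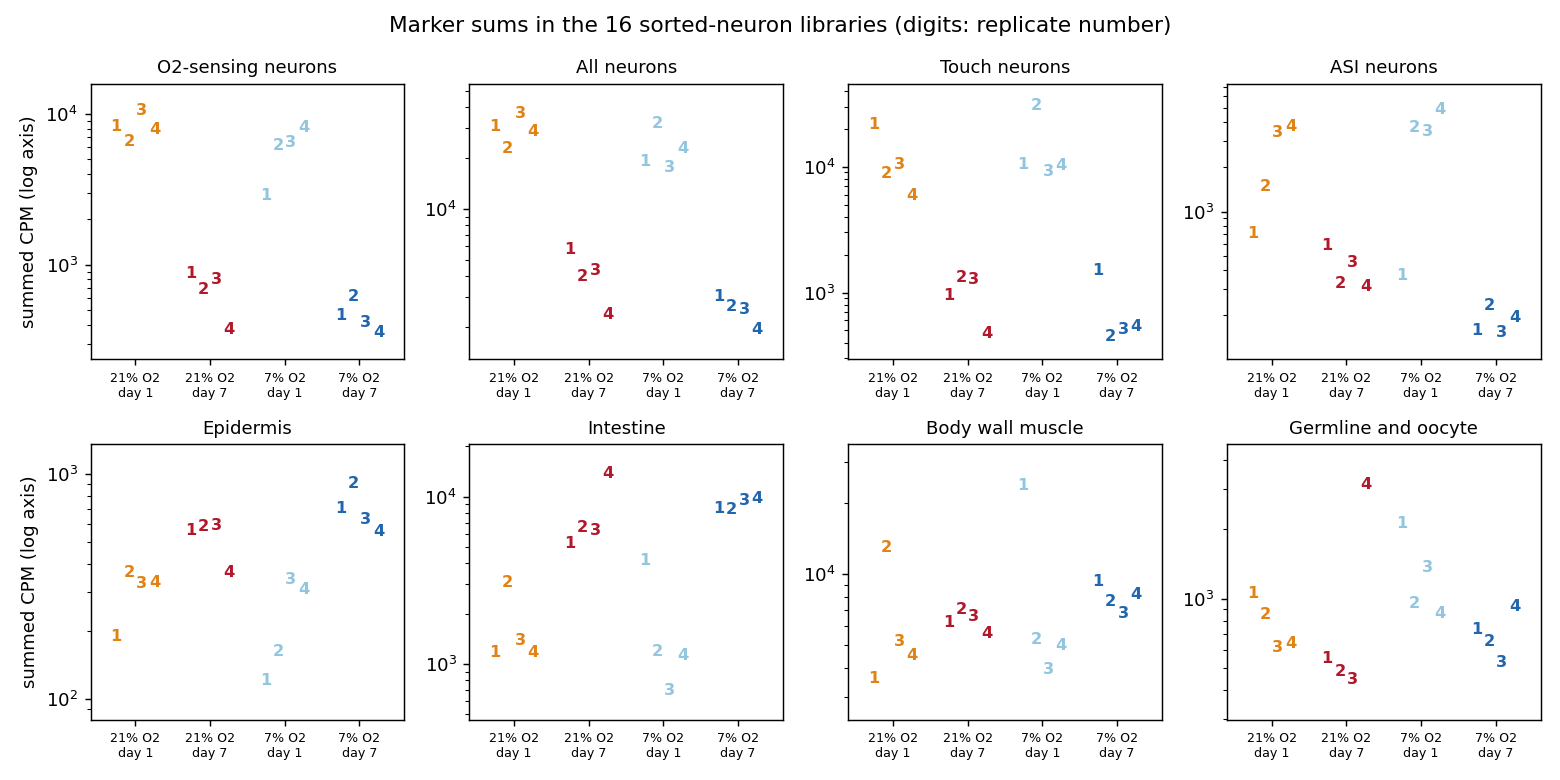
Summed TMM-scaled CPM of marker lists (log axis) in the 16 sorted-neuron libraries, with each digit the replicate number of a library. Neuronal sums were lower on day 7 at both O2 levels, and intestinal sums were higher. Replicate 1 at 7% O2 of day 1 and replicate 4 at 21% O2 of day 7 sit away from their groups for muscle and germline genes.

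glb-27, on chromosome II from 8547337 to 8556266 (WBcel235), encodes a globin, a haem protein of the family that binds O2. In day 1 neurons it was at 37.9, 34.4, 23.8 and 25.7 CPM at 21% O2 and at 81.6, 338, 176 and 334 CPM at 7% O2. On day 7 it was at 1.85, 12.2, 4.76 and 6.78 CPM at 21% O2 and at 2.54, 1.25, 1.06 and 0.968 CPM at 7% O2. All 7% libraries were above all 21% libraries on day 1, whereas on day 7 the groups overlapped in 1 library each and the mean was lower at 7% O2. Its level fell with age by 2.25 on the log2 scale at 21% O2 and by 7.32 at 7% O2, an interaction of 5.07 (95% interval 3.44 to 6.71, adjusted p = 0.027, edgeR quasi-likelihood test with Benjamini-Hochberg adjustment). glb-27 had the smallest p of all genes tested. With 1 library left out at a time the call held in 14 of 16 fits, and it was lost without replicate 2 of the day 1 neurons at 7% O2 or replicate 4 of the day 7 neurons at 7% O2, with an adjusted p of up to 0.128 by edgeR. DESeq2 called glb-27, while limma voom and the edgeR fit with the replicate number as a block did not, with an adjusted p of up to 0.354 over the alternatives. Without the 3 libraries that stood apart the interaction was 5.52 (adjusted p = 0.0131 by edgeR).

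nhr-14, on chromosome X from 8473722 to 8476178, encodes a nuclear hormone receptor, one of a large family of transcription factors in C. elegans. On day 1 it was at 63.6, 35.9, 20.2 and 39 CPM at 21% O2 and at 115, 479, 240 and 351 CPM at 7% O2, with no overlap. On day 7 the values were 242, 104, 117 and 46.4 CPM at 21% O2 and 64.7, 67.4, 85.7 and 118 CPM at 7% O2, which overlap. The day 1 gap between O2 levels was thus not seen on day 7, as the level rose by 1.68 on the log2 scale at 21% O2 and fell by 1.82 at 7% O2. The interaction was 3.50 (95% interval 2.07 to 4.93, adjusted p = 0.0978 by edgeR). It held in 3 of 16 fits with a library left out (adjusted p 0.016 to 0.289), and without the 2 unusual day 1 libraries it was 3.83 and did not pass (adjusted p = 0.127 by edgeR). Without all 3 unusual libraries it was 4.13 (adjusted p = 0.0131 by edgeR).

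cha-1, on chromosome IV from 3613931 to 3624697, encodes choline acetyltransferase, the enzyme that makes acetylcholine. On day 1 it was at 85.9, 42.2, 80 and 51.6 CPM at 21% O2 and at 28.9, 51.9, 52.8 and 32.8 CPM at 7% O2. On day 7 it was at 17.7, 2.12, 7.18 and 0.0997 CPM at 21% O2, and no count was seen in any of the 4 libraries at 7% O2. Against a floor of 3 counts over that group (0.0514 CPM), the level was at least 809-fold lower on day 7 at 7% O2, and it fell by 3.26 on the log2 scale at 21% O2. The difference between these age changes was at least 84.4-fold, or at least 39.1-fold without replicate 1 of the day 7 neurons at 21% O2, with a fitted interaction of 8.86 that depends on the prior count of the fit (adjusted p = 0.0986 by edgeR). The call held in 1 of 16 fits with a library left out, the one without replicate 4 of the day 7 neurons at 21% O2, and adjusted p in these fits ran from 0.00951 to 0.289. cha-1 shares 66 exon bases (3.2%) with unc-17, the vesicular acetylcholine transporter gene of the same locus. unc-17 fell by 4.16 on the log2 scale at 21% O2 and fell by 5.52 at 7% O2, with an interaction of 1.37 (adjusted p = 0.870 by edgeR), and was named here after its values were seen.

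nlp-11, on chromosome II from 9689664 to 9691939, encodes a neuropeptide-like protein precursor. On day 1 it was at 605, 400, 698 and 592 CPM at 21% O2 and at 40.1, 44.4, 58.1 and 94.0 CPM at 7% O2. On day 7 it was at 24.7, 12.8, 13.9 and 21.4 CPM at 21% O2 and at 22.7, 8.07, 9.77 and 23.8 CPM at 7% O2. The day 1 groups lay far apart and the day 7 groups overlapped almost entirely. The level fell by 4.98 on the log2 scale at 21% O2 and by 1.88 at 7% O2, an interaction of -3.10 (95% interval -4.26 to -1.93, adjusted p = 0.0683 by edgeR). The call held in 6 of 16 fits with a library left out, where the interaction stayed between -3.42 and -2.85 (adjusted p 0.0311 to 0.171 by edgeR).

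itx-1, on chromosome I from 2802803 to 2815830, encodes a protein of the neurexin superfamily that is known from the intestine. On day 1 it was at 25.8, 2.58, 2.38 and 36.7 CPM at 21% O2 and at 0.796, 0.546, 0.261 and 0.196 CPM at 7% O2. On day 7 it was at 89.8, 97.2, 76.0 and 13.5 CPM at 21% O2 and at 117, 137, 97.2 and 112 CPM at 7% O2. ugt-58, on chromosome II from 9584384 to 9586784, encodes a UDP-glucuronosyltransferase, an enzyme class that conjugates foreign and endogenous compounds. Its day 1 values were 11, 9.97, 1.22 and 6.28 CPM at 21% O2 and 0.290, 0.668, 0.652 and 0.392 CPM at 7% O2. Its day 7 values were 32.2, 52.8, 37.9 and 12.6 CPM at 21% O2 and 39, 167, 114 and 41.4 CPM at 7% O2. Both genes were scarcely counted in day 1 neurons at 7% O2 (24 counts over the group for each), were higher in day 1 neurons at 21% O2, and had high values at both O2 levels on day 7. itx-1 rose by 2.04 at 21% O2 and by 7.93 at 7% O2 on the log2 scale (interaction -5.89, 95% interval -8.23 to -3.54, adjusted p = 0.0877 by edgeR). ugt-58 rose by 2.25 and by 7.48 (interaction -5.23, 95% interval -7.31 to -3.14, adjusted p = 0.0877 by edgeR). Each call held in 3 of 16 fits with a library left out, with adjusted p of 0.034 to 0.229 for itx-1 and 0.034 to 0.289 for ugt-58 by edgeR.

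The intestinal marker list was also higher on day 7 at both O2 levels. On day 1 its sum was 1180, 3060, 1380 and 1180 CPM at 21% O2 and 4160, 1190, 697 and 1120 CPM at 7% O2, groups that overlap and in which the highest values are those of the unusual libraries. Its 15 genes summed to 1180 to 3060 CPM on day 1 and 5280 to 13700 CPM on day 7 at 21% O2, and to 697 to 4160 CPM and 8420 to 9770 CPM at 7% O2. Of its 11 tested genes 7 had a negative interaction, and the median was -0.65, which turned to 0.12 without replicate 2 of the day 1 neurons at 21% O2. On day 1 at 7% O2, 2 of the 15 genes were at 0. The part of intestinal RNA in the itx-1 and ugt-58 results was not tested. In whole worms the 2 genes had interactions of -0.13 (SE 0.57) and -1.01 (SE 0.39), with adjusted p of 0.943 and 0.296 by edgeR.

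C30A5.4 lies on chromosome III from 8222226 to 8223794. It was at 0.511, 2.46, 1.75 and 0 CPM in day 1 neurons at 21% O2 and had 1 count in all 4 libraries together on day 1 at 7% O2. On day 7 no count was seen at 21% O2, while the 7% libraries were at 29.1, 22.8, 2.97 and 6.45 CPM. The sign of its age change was opposite at the 2 O2 levels. With 1 group at 0 and another at 1 count, the fitted interaction (adjusted p = 0.0683 by edgeR) has no meaningful size, and reads of a pseudogene can come from near-identical genes. The call held in 5 of 16 fits with a library left out, where adjusted p was 0.0325 to 0.201 by edgeR.

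**Figure D3:**
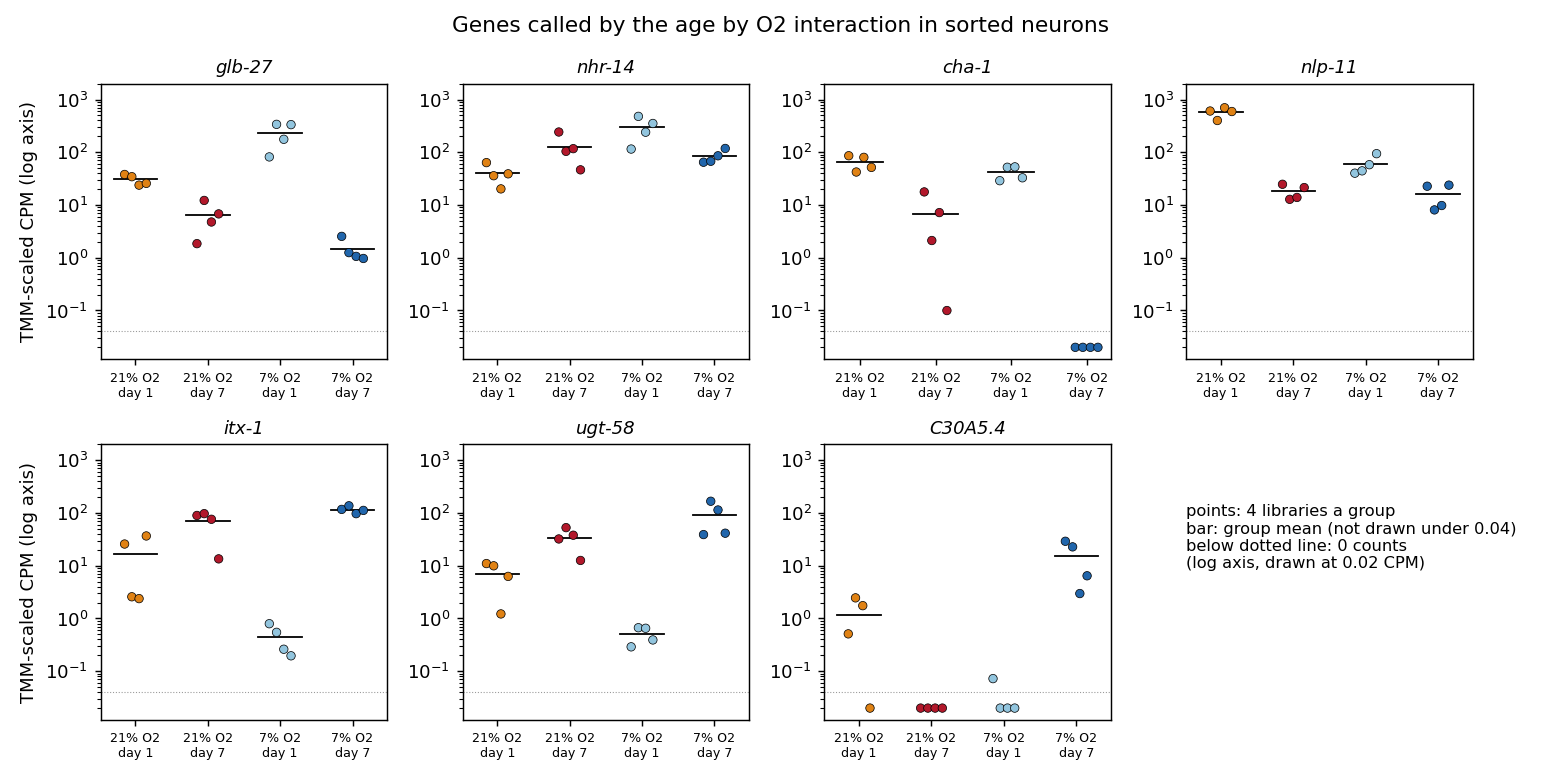
TMM-scaled CPM (log axis) of the 7 called genes in the 4 libraries of each group. Points below the dotted line are libraries with 0 counts. glb-27, nhr-14, nlp-11, itx-1 and ugt-58 differed between O2 levels on day 1 with no overlap, and cha-1 had no count in day 7 neurons at 7% O2.

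Because the interaction equals the O2 difference on day 7 minus that on day 1, the same libraries show where each gene differed. Between O2 levels 11 genes (0.0939%) were called on day 1 and 18 (0.154%) on day 7. Of the 7 interaction genes, glb-27, nhr-14, nlp-11, itx-1 and ugt-58 were also called on day 1, and cha-1 and C30A5.4 on day 7. No interaction gene was called at both ages. These contrasts share libraries with the interaction and add no separate evidence.

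The count of 7 depended on single libraries. It was 0 without replicate 2 of the day 1 neurons or without replicate 4 of the day 7 neurons at 7% O2. The count was 1 if the library left out was replicate 1 of the day 1 neurons or replicate 1, 2 or 3 of the day 7 neurons at 21% O2. It was 2 without replicate 4 of the day 1 neurons at either O2 level or replicate 2 of the day 7 neurons at 7% O2. Omitting replicate 4 of the day 7 neurons at 21% O2 gave 3. It was 4 without replicate 2 or 3 of the day 1 neurons at 21% O2 or replicate 1 of the day 7 neurons at 7% O2, and 5 if the library left out was replicate 1 of the day 1 neurons or replicate 3 of the day 7 neurons at 7% O2. Omitting replicate 3 of the day 1 neurons at 7% O2 raised it to 10. Leaving out both unusual day 1 libraries gave 2 calls, glb-27 and itx-1, and leaving out all 3 unusual libraries gave 4, with cha-1 and nhr-14 added. DESeq2 called 121 genes and limma voom with sample quality weights 3, and the 7 were among the 121. The 3 of voom included nhr-14 and C30A5.4.

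The genes next in order did not pass. On the positive side these were C14A11.6 (interaction 8.64, adjusted p = 0.253), the copine gene nra-1 (2.40, 0.253) and the dipeptidyl peptidase family gene dpf-1 (3.95, 0.292), all by edgeR with Benjamini-Hochberg adjustment. C14A11.6 was at 5.07, 19.8, 11.5 and 4.31 CPM in day 1 neurons at 7% O2 and had no count in the day 7 neurons at 7% O2, at least 198-fold lower by the same floor. nra-1, which acts with nicotinic acetylcholine receptors, was at 383, 580, 622 and 468 CPM on day 1 at 7% O2 and at 58.1 to 117 CPM in the day 1 neurons at 21% O2. On day 7 its values overlapped, at 63.3 to 103 CPM at 21% O2 and 42.3 to 165 CPM at 7% O2. It fell by 2.67 on the log2 scale at 7% O2, while its change of -0.27 at 21% O2 did not pass. DESeq2 and voom called it. Without replicate 1 of the day 7 neurons at 7% O2, nra-1 was called (interaction 3.00, adjusted p = 0.0114 by edgeR).

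On the negative side the next genes were the spinster-like transporter gene spin-1 (interaction -7.04, adjusted p = 0.235 by edgeR) and the serotonin receptor gene ser-4 (-8.02, 0.235). spin-1 had 3 counts over the 4 day 1 libraries at 7% O2 and was at 1.79, 6.53, 2.27 and 6.58 CPM on day 1 at 21% O2, with 2.23 to 19.3 and 11.3 to 50.3 CPM on day 7. ser-4 was at 10.9 to 38.8 CPM on day 1 at 21% O2 and had no count in any day 7 library there, while at 7% O2 it was at 9.60 to 63.8 CPM on day 1 and 0.407, 1.91, 4.56 and 4.30 CPM on day 7.

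A set of 11 genes the study worked on was compared one by one. It does not hold every such gene: nhr-14, described above, was also knocked down in the study. nhr-14 and nlp-11 were picked there by their O2 difference in these day 1 libraries. kdin-1, skn-1 and cfp-1 were picked there by their O2 difference in these day 7 libraries. The set was thus chosen in part on these samples, so none of these genes is independent evidence of a direction. gcy-37 and gcy-32 encode subunits of the O2-binding guanylate cyclases. gcy-37 was at 1300 to 1540 CPM on day 1 and 192 to 498 CPM on day 7 at 21% O2, and at 838 to 2090 and 226 to 402 CPM at 7% O2. It fell with age by 1.96 and by 2.31 on the log2 scale, an interaction of 0.35 with a 95% interval of -0.52 to 1.22 (adjusted p = 0.921 by edgeR). gcy-32 fell by 4.23 and fell by 5.38, an interaction of 1.15 (0.08 to 2.22, adjusted p = 0.631). Both genes fell at both O2 levels, and for gcy-37 a difference between the levels larger than 1.22 lies outside the interval.

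Calcium signalling genes were compared next. cmd-1, which encodes calmodulin, fell by 1.89 at 21% O2 and by 1.64 at 7% O2, an interaction of -0.24 (95% interval -1.01 to 0.53, adjusted p = 0.940 by edgeR). tax-6, the calcineurin A gene, had an interaction of 0.41 (-0.45 to 1.28, adjusted p = 0.896), and unc-68, the ryanodine receptor gene, one of 0.02 (-0.96 to 1.01, adjusted p = 1.00). ncx-5, a sodium-calcium exchanger gene, was at 509 to 906 and 12.5 to 54.6 CPM on days 1 and 7 at 21% O2 and at 144 to 648 and 1.08 to 7.64 CPM at 7% O2. The day 7 groups did not overlap, yet the interaction of 1.96 (0.47 to 3.46) did not pass over all genes (adjusted p = 0.585 by edgeR).

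flp-19, which encodes FMRFamide-like peptides, showed a different course from nlp-11. It was at 340 to 974 CPM on day 1 and 15.2 to 36.2 CPM on day 7 at 21% O2, and at 59.7 to 167 and 1.92 to 6.65 CPM at 7% O2. The 21% libraries were above the 7% libraries at both ages with no overlap. Its interaction was -0.18 (95% interval -1.40 to 1.05, adjusted p = 0.983 by edgeR). The difference between nlp-11 and flp-19 was not tested.

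kdin-1, the homologue of the neurotrophin signalling scaffold KIDINS220, was at 95.6, 101, 130 and 51.0 CPM on day 1 and 24.4, 39.6, 22.4 and 116 CPM on day 7 at 21% O2. At 7% O2 it was at 148, 165, 73.9 and 53.9 CPM on day 1 and 4.07, 2.00, 11.4 and 11.3 CPM on day 7. The 2 day 7 groups did not overlap and the day 1 groups did. As the study picked kdin-1 by its day 7 difference in these libraries, the day 7 gap is no separate evidence. It fell by 3.94 on the log2 scale at 7% O2 and had a change of -0.90 at 21% O2 that did not pass. The interaction was 3.04 (95% interval 1.26 to 4.82), with an adjusted p of 0.414 by edgeR, and it was called by DESeq2. Without replicate 4 of the day 7 neurons at 21% O2, in which germline markers were highest, it was 2.39.

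skn-1 encodes the transcription factor of the oxidative stress response, and cfp-1 a CXXC finger protein of the histone methyltransferase complex COMPASS. skn-1 ranged from 1160 to 5860 CPM on day 1 at 21% O2 and from 785 to 7950 CPM at 7% O2, so its interaction of 1.29 (95% interval -0.18 to 2.75, adjusted p = 0.715 by edgeR) is loosely fixed. cfp-1, picked by the study in the same way as kdin-1, was at 39.3 to 58.5 CPM on day 7 at 21% O2. At 7% O2 it was at 1.75 to 16.7 CPM on day 7, with no overlap. It fell by 2.34 on the log2 scale at 7% O2 with an age change of -0.16 at 21% O2, and the interaction of 2.18 (0.33 to 4.03) did not pass (adjusted p = 0.601 by edgeR).

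**Figure D4:**
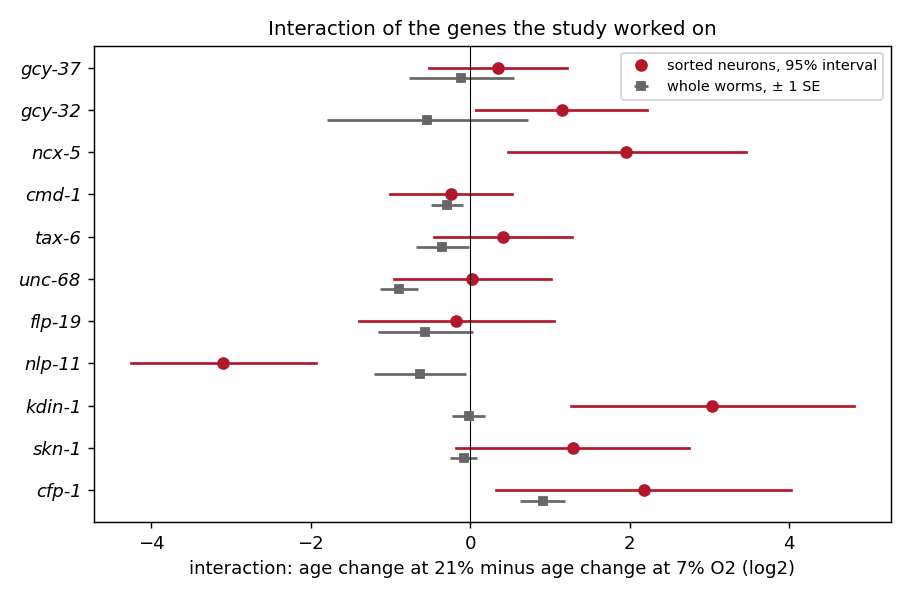
Interaction (log2) of 11 genes the study worked on, in sorted neurons with 95% intervals that are not adjusted over genes (circles) and in whole worms with 1 standard error (squares). nlp-11 at -3.10 is the only one of these 11 called, and nhr-14, another gene the study worked on, is not drawn. ncx-5 was not tested in whole worms.

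Gene lists are described by how many members leaned each way and by their median, read against 51.4% positive and a median of 0.04 over all genes tested. Age calls within a list are read against those of all 11720 genes tested. Of these, 1418 rose and 2107 fell at 21% O2, and 1803 rose and 2459 fell at 7% O2. Under an alternative scaling (RLE) the median of all genes was 0.12. List medians depended on single libraries, so their range with 1 library left out at a time is given where it is wide. The O2 sensing list of the study had 23 genes tested, 16 of them positive, with a median of 0.27 (0.08 to 0.63 with a library left out) and none called. All 7 soluble guanylate cyclases fell at both O2 levels, and 5 of the 7 were positive (median 0.68, lowest at 0.36 without replicate 2 of the day 7 neurons at 21% O2). The calcium list had 40 tested, 20 positive and 20 negative, with a median of -0.01, and it held at once nra-1, ncx-5 and mca-1, a plasma membrane calcium pump gene at -1.81 (adjusted p = 0.591 by edgeR). Positive and negative members were thus equal in number.

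Lists of neuronal machinery held more positive than negative members. Cilia genes, which build the sensory ending, had 30 of 35 positive with a median of 1.20 (0.85 to 1.57 with a library left out). Their median level was 64.2 to 81.4 CPM on day 1 and 7.68 to 19.4 CPM on day 7 at 21% O2, and 40.4 to 104 and 3.66 to 8.65 CPM at 7% O2. In this list 22 genes fell at 21% O2 and 28 at 7% O2, and none was called for the interaction. More falls at 7% O2 were also seen over all genes tested (2107 and 2459 of 11720). The transition zone gene mks-5 (3.04, adjusted p = 0.392) and the BBSome gene bbs-1 (3.49, 0.408) had the smallest p by edgeR, with ift-20 of the intraflagellar transport complex at 0 counts in day 7 neurons at 7% O2.

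Of 27 synaptic vesicle release genes 22 were positive, with a median of 0.47 that fell to 0.07 without replicate 2 of the day 1 neurons at 7% O2 and was at most 0.70 in the other such fits. Of these genes 24 fell at 21% and 25 at 7% O2. Their median level on day 7 was 34.7 to 91.5 CPM at 21% O2 and 30.9 to 69.0 CPM at 7% O2, which overlap. sad-1, a kinase that organises presynaptic sites, had an interaction of 2.20 (adjusted p = 0.328), and rbf-1 (rabphilin) and unc-10 (RIM) had 1.83 and 1.24 (adjusted p = 0.585 and 0.631, edgeR). Among learning and memory genes 28 of 31 were positive (median 0.54, or 0.45 to 0.91 with a library left out), and their median level on day 7 was 43.7 to 58.9 CPM at 21% O2 and 28.8 to 39.8 CPM at 7% O2, with no overlap. The NMDA receptor subunit genes nmr-2 (7.72, adjusted p = 0.409) and nmr-1 (5.26, 0.666) were at or under 0.134 CPM in the mean of day 7 neurons at 7% O2, and crh-1, the CREB gene, had 1.01 (adjusted p = 0.656, edgeR). nmr-1 turned to -3.60 without replicate 2 of the day 7 neurons at 21% O2. Peptide processing and dense-core vesicle genes had 11 of 15 positive (median 0.57, or 0.41 to 0.90), with rund-1 at 2.22 (1.22 without replicate 1 of the day 7 neurons at 21% O2), ida-1 at 0.95 and the carboxypeptidase gene egl-21 at 0.74. Counting each gene of these 4 lists once, 91 of 108 were positive with a median of 0.59, and 0 were called by edgeR. An unadjusted p under 0.05 by edgeR was seen for 15 on the positive side and 0 on the negative side, against 426 and 446 of all 11720 genes tested. Each of the 4 lists by itself held 0 negative members at that threshold, so this split follows from which lists were pooled. Outside the pool, neuropeptide receptor genes had 7 positive and 2 negative members there, potassium channel genes 1 and 2, and FMRFamide-like peptide genes 2 and 0. Genes measured in the same libraries are not independent, and the split was not tested. Other lists with neuronal members varied. Near balance were calcium genes (20 of 40 positive), neuropeptide-like protein genes (17 of 35) and chemoreceptor genes (49 of 94). Insulin-like peptide genes and activity-linked transcription factors had 15 of 19 positive each. FMRFamide-like peptide genes (19 of 29), potassium channel genes (14 of 21) and neuropeptide receptor genes (46 of 76) also held more positive than negative members.

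Among neuron markers, those of the sorted O2-sensing neurons had 6 of 10 positive (median 0.37, or 0.12 to 0.56 with a library left out), and their day 7 sums, given above, overlapped between O2 levels. All-neuron markers summed to 2360 to 5720 CPM on day 7 at 21% O2 and to 1940 to 3030 CPM at 7% O2, and 8 of 11 were positive (median 0.29, or 0.13 without replicate 2 of the day 1 neurons and 0.61 without replicate 4 of the day 7 neurons at 21% O2). ASI markers summed to 312 to 591 and 151 to 233 CPM on day 7, with no overlap, and all 5 tested were positive (median 1.71). Touch neuron markers had 8 of 10 positive (median 0.75, or 0.17 without replicate 2 of the day 1 neurons and 1.30 without replicate 1 of the day 7 neurons at 7% O2). Germline and oocyte markers had 15 of 16 positive with a median of 1.69, which fell to 0.13 without the 3 unusual libraries. In that fit cilia genes were at 1.74, and the neuron markers were higher too. Their medians were then 2.15 for ASI, 1.16 for touch neurons, 0.76 for O2-sensing neurons and 0.55 for all neurons. The part that the makeup of the sorted cells has in these medians was not tested.

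FMRFamide-like peptide genes had 19 of 29 positive (median 0.49, or 0.13 to 0.85 with a library left out and 0.21 with voom), with the smallest p for flp-3 (1.88, adjusted p = 0.524 by edgeR), flp-9 and flp-6. Insulin-like peptide genes had 15 of 19 positive (median 0.79, or 0.55 to 1.28), with the smallest p for a negative member, ins-25 (-7.84, adjusted p = 0.591, or -2.92 without replicate 1 of the day 7 neurons at 7% O2), and then daf-28 at 1.72 (adjusted p = 0.680, edgeR) and ins-5 at 1.24. Neuropeptide-like protein genes had 17 of 35 positive (median -0.07), and nlp-11 was the only called gene in any of the lists described here. Neuropeptide receptor genes had 46 of 76 positive (median 0.33, or -0.06 to 0.80), with ckr-1 (7.87, adjusted p = 0.414) and frpr-5 (5.99, 0.501) scarcely counted in day 7 neurons at 7% O2. ckr-1 was at 2.79 without replicate 4 of the day 7 neurons at 21% O2 and at 10.37 without replicate 4 at 7% O2. Potassium channel genes had 14 of 21 positive (median 0.58, or 0.15 to 0.71), although the 2 of smallest p, the leak channel gene sup-9 (-12.34, adjusted p = 0.408) and kqt-2 (-7.32, 0.603), were negative by edgeR. The lowest medians of the FMRFamide-like, potassium channel, O2 sensing and learning lists came without replicate 2 of the day 1 neurons at 7% O2, and that of the receptors without replicate 3 of the day 7 neurons at 21% O2. The highest of the cilia, synaptic, learning, O2 sensing, processing, peptide and receptor lists came without replicate 4 of the day 7 neurons at 21% O2.

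Genes tied to neuronal activity gave medians of 0.61 for 19 activity-linked transcription factors (15 positive, lowest at 0.35 without replicate 4 of the day 1 neurons at 7% O2) and 0.54 for 47 delayed primary response genes (30 positive, 0.41 to 0.81). cebp-1, a bZIP factor of the axon injury response, was at 80.2 and 122 CPM on days 1 and 7 at 21% O2 and at 321 and 139 CPM at 7% O2 in the group means (interaction 1.81, adjusted p = 0.524 by edgeR). mbl-1, a muscleblind splicing factor gene, had 1.43 and pqn-44 had 1.18. All 5 tested genes of the KIDINS220 list, kdin-1 among them, were positive (median 0.92), with the syntrophin gene stn-1 at 1.42 (adjusted p = 0.682 by edgeR), but this median was 0.10 without replicate 1 of the day 1 neurons at 7% O2, 0.39 and 0.60 without the 2 or 3 unusual libraries, and 0.34 with voom.

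Oxidative and redox stress genes had 19 of 41 positive (median -0.09). An unadjusted p under 0.05 by edgeR was seen for 2 positive members and 1 negative member. The negative one was the disulphide isomerase gene pdi-2 at -0.90 (adjusted p = 0.557 by edgeR), as it rose by 2.22 at 21% O2 and by 3.13 at 7% O2. SKN-1 and antioxidant genes were at 10 of 20 and 0.02, and HIF-1 pathway genes, which respond to low O2, at 5 of 10 and -0.16 (-0.63 to 0.24 with a library left out). Translation factors had 17 of 49 positive (median -0.34). Of the 49, 18 rose at 21% and 28 at 7% O2, with no fall called. More rises at 7% O2 were also seen over all genes tested (1418 and 1803 of 11720). Cytosolic ribosomal protein genes had a median of 0.09, and 64 of 79 rose at each O2 level. Mitochondrial respiratory subunits (11 of 38, median -0.20) and proteasome subunits (10 of 31, median -0.19) had more negative than positive members. Heat shock and chaperone genes had 12 of 23 positive (median 0.04). In this list the mitochondrial chaperone genes hsp-6 (1.08, adjusted p = 0.594 by edgeR) and hsp-60 (1.22, 0.641) rose at 21% O2, while their changes at 7% O2 of 0.38 and 0.12 did not pass. The heat shock gene hsp-16.41 had the opposite sign, with an interaction of -5.06 (95% interval -9.83 to -0.28, not adjusted over genes). It was not called, and with a library left out its adjusted p ran from 0.512 to 0.822 by edgeR.

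Cuticle collagen genes had 28 of 64 positive, with a median of -0.35 that was 0.15 without the 3 unusual libraries. The smallest p were those of col-61 (7.37) and col-121 (-4.70), each with an adjusted p of 0.524 by edgeR. With a library left out, col-61 fell to 2.79 without replicate 2 of the day 7 neurons at 21% O2, and col-121 ran from -6.45 without replicate 4 of the day 1 neurons at 7% O2 to -3.22 without replicate 2 at 21% O2. dpy-17, a cuticle collagen of body shape, rose by 3.38 at 21% O2 and 7.80 at 7% O2 (interaction -4.42, adjusted p = 0.535 by edgeR). Like itx-1 and ugt-58 it was low in day 1 neurons at 7% O2, at 1.53 CPM in the mean against 21.4 CPM at 21% O2. The collagen gene sqt-3 and the patched-related gene ptr-4, 2 of the epidermal markers, had interactions of -3.84 and -3.32 (adjusted p = 0.558 and 0.585, edgeR). Without replicate 2 of the day 1 neurons at 21% O2 the value was -2.20 for dpy-17 and -1.89 for sqt-3, and without replicate 1 at 7% O2 it was -6.12 and -5.07. The 15 epidermal markers summed to 121 to 339 CPM on day 1 at 7% O2, where 4 of them were at 0, and to 190 to 365 CPM at 21% O2, and their median interaction was -0.26, which ran from -2.29 without replicate 1 of the day 1 neurons at 7% O2 to 1.02 without replicate 2 at 21% O2. Their part in these values was not tested.

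**Figure D5:**
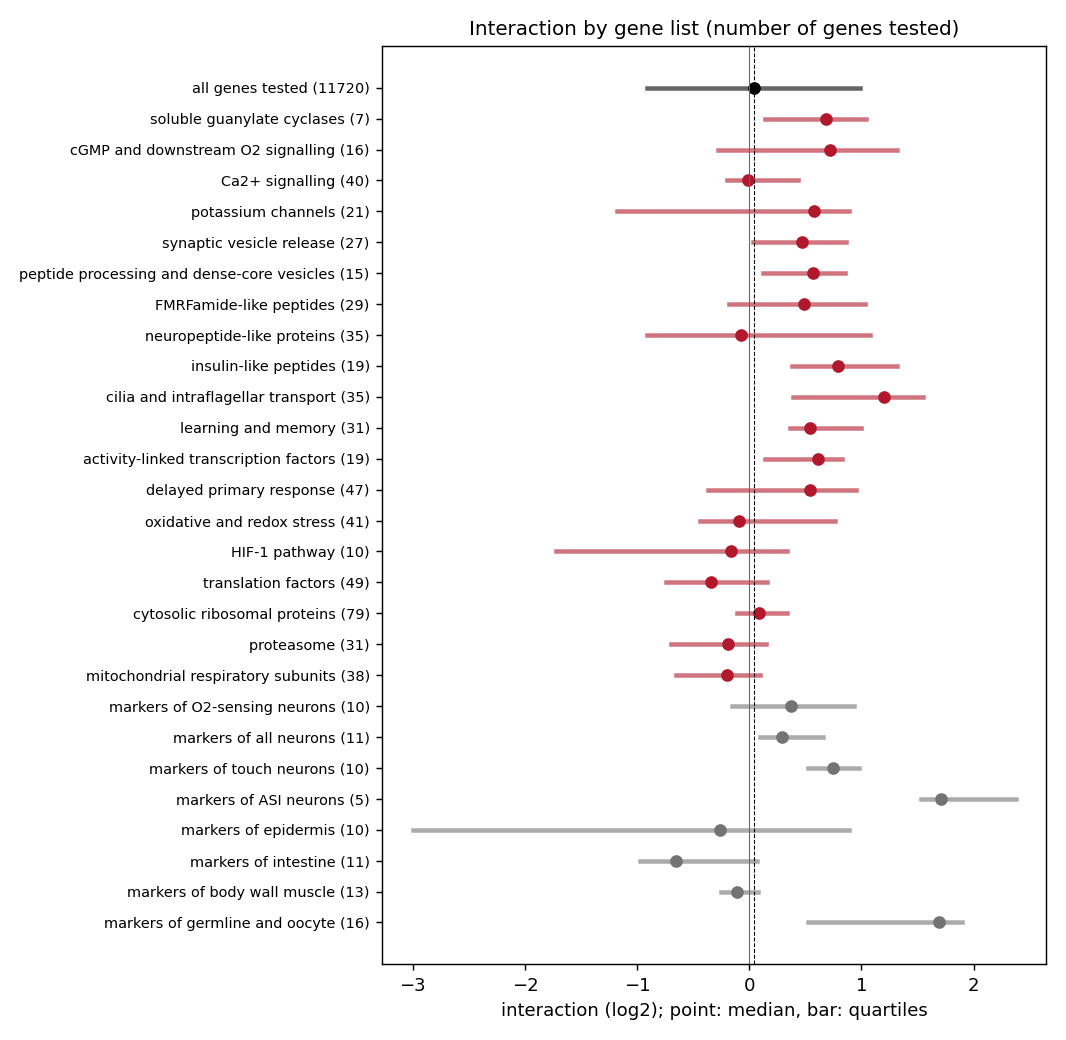
Median interaction (points) and quartiles (bars) on the log2 scale over the tested members of most of the lists described, with the number tested in brackets. The dashed line is the median of all genes, 0.04. Cilia genes had a median of 1.20 and translation factors one of -0.34, and marker lists are in grey.

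Of the MetaWorm genes listed as rising with age, 109 of 234 were positive, with a median interaction of -0.05. Their median age change was 0.84 at 21% O2 and 0.86 at 7% O2. Those listed as falling had 25 of 57 positive and a median of -0.14.

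In whole worms the same comparison called 23 of 10894 genes (0.211%), 4 positive and 19 negative. They included the laminin genes epi-1 and lam-2 and the epidermal attachment genes let-805 and mup-4. None of the 23 was called in neurons, where let-805 was at -1.67 and mup-4 at -1.65. The test of the difference between neurons and whole worms called 2 of 13327 genes (0.0150%), and 0 with the replicate number as a block. These were glb-27 (6.74, adjusted p = 0.0649 by edgeR), which in whole worms was at 0.241 to 1.03 CPM in the group means with an interaction of -1.59, and C53B7.3 (7.16, adjusted p = 0.0649). C53B7.3 was at 1.85, 18.6, 5.28 and 7.78 CPM in day 7 neurons at 21% O2 and at 0, 0.166, 0 and 0.323 CPM at 7% O2, and its own neuron interaction of 6.17 did not pass (adjusted p = 0.328). For nlp-11, nhr-14, cha-1, itx-1 and ugt-58 the difference between neurons and whole worms did not pass (adjusted p of 0.158 to 0.300 by edgeR).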

How the data were processed

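RNA was measured in 32 libraries, and the 16 from sorted neurons were used for the interaction. The authors deposited raw counts, 1 per gene and library, of read pairs (fragments). The authors trimmed reads with Cutadapt 1.9, aligned them with STAR 2.5.2b to WBcel235, removed ribosomal RNA genes and counted exons without regard to strand with featureCounts 1.5.1, so reads of overlapping genes on opposite strands cannot be told apart. Amplified reads are not independent molecules, and floors (3 counts over a group) cover counting error only.

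Genes were kept with filterByExpr (minimum count 10), scaled with TMM and tested two-sided with the robust quasi-likelihood F test of edgeR 4.0.16 in R 4.3.3. The interaction was (21% day 7 minus 21% day 1) minus (7% day 7 minus 7% day 1), and a call needed p under 0.1 after Benjamini-Hochberg adjustment and a fold of 1.5 or more. Standard errors were derived from F, as the size of the log2 change over its root. Neurons and whole worms were set against each other in a fit of all 32 libraries, with no term for the dissociated sample that a sorted and a whole-worm library share. The test was tested on simulated data.

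The comparison, genes and lists were chosen with earlier results of these data known. Named were called genes, filled to 6 in each direction by smallest p, genes the study worked on, and of each list up to 3 members by smallest p. Alternatives were DESeq2 1.42.0, limma 3.58.1 voom with quality weights, RLE size factors, other filters on low counts, an adjusted p under 0.05, no minimum fold, a replicate block, all 32 libraries, no gene over 5% of a library, and each library left out. Leaving out the 2 or 3 unusual libraries together was chosen after seeing the data. No sequences are shown.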

Additional observations from a re-analysis of the deposited data

Results flagged for a closer look

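The 7 genes whose age change differed between O2 levels by the test of the difference itself had log2 interactions of 5.07 for glb-27, 3.50 for nhr-14, 8.86 for cha-1, -3.10 for nlp-11, -5.89 for itx-1, -5.23 for ugt-58 and -16.04 for C30A5.4. The values for cha-1 and C30A5.4 depend on the prior count of the fit, since a group of each is at 0.

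In 84 groups of 4 libraries of the named genes, 1 library lay far from the other 3. C30A5.4 was at 0.0724 CPM in replicate 1 of day 1 neurons at 7% O2, which is 1 count, and at 0 in the others. For normally spread values chance alone gives such a flag in about 1 of 20 groups. That rate does not hold here, since the rule flags any group with counts in a single library. The flag therefore does not show that this library is unusual.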

How the results depend on the processing

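For the neuron interaction (7) the counts of called genes were 121 with DESeq2, 3 with limma voom, 124 with no low-count filter, 3 with at least 1 CPM in all 4 libraries of a group, 1 at an adjusted p under 0.05, 440 with all 32 libraries, and 2 and 4 without the 2 or 3 unusual libraries (0 to 10 with each library left out). For whole worms (23) they were 298 with DESeq2, 807 with voom, 44 with RLE size factors, 342 with no filter, 63 with the CPM filter and 1 at 0.05 (1 to 395 left out). For the difference between the sample types (2) they were 185 with DESeq2, 4 with voom, 187 with no filter and 0 at 0.05 (0 to 9 left out). The age change (3525 at 21% O2, 4262 at 7% O2) moved only with all 32 libraries, to 5592 and 6460 (2917 to 3864 and 3862 to 4652 left out). The cause was not tested.

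With the replicate number as a block the counts were 1 for neurons, which was nlp-11 and not glb-27, 172 for whole worms and 0 for the difference. Correlations of deviations between same-numbered neuron libraries ran from -0.12 to 0.10 (median 0), and between other neuron libraries from -0.14 to 0.29 (median 0). No pairing by number was seen among the neuron libraries, but such values cannot exclude it. Pairs of a neuron and a whole-worm library were not compared in this way. The study took whole-worm RNA from each dissociated sample before sorting, and the fit behind the difference had no term for this.

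Of 119 named genes 111 kept the direction of the interaction in all alternatives. Values near 0 turned: unc-68 to -0.40 with voom, -0.08 with the block, and -0.17 and -0.01 without the 2 or 3 unusual libraries, flp-19 to 0.02 with voom and 0.12 without the 3, unc-45 to -0.31 with voom and -0.17 without the 2, and cmd-1 to 0.14 without the 3. With a library left out, values that turned ran from -0.35 to 0.26 for unc-68, -0.50 to 0.15 for flp-19, -0.38 to 0.06 for cmd-1, -0.64 to 1.18 for unc-45, -0.07 to 0.40 for act-4, -0.41 to 0.85 for ncx-2, -3.60 to 9.06 for nmr-1 and -0.58 to 9.98 for gst-30.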
